A study of Mus musculus with 43 samples.

Results

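Tumoroids, colon organoids that had lost Apc, were compared with wild-type colonoids while both were growing in 8 µM regorafenib (R8). The comparison held 6 of the 43 samples of the series: 1 library from each of the tumoroid lines F11, M3 and M14 and from each of the colonoid lines M41, M40 and M1. Of 52636 genes, the 10440 with at least 200 CP20M in 2 or more of these 6 libraries were compared. CP20M is a read count scaled to nearly the same total in every library (20006722 to 20019739 CP20M). Within a library genes of all lengths shared 1 step between values, so the values were taken as not divided by gene length, and levels are set side by side between samples and never between genes. The question was which differences between the genotypes remained, vanished or appeared under the drug. The 6 libraries of the same lines in vehicle (Ve, DMSO) were the reference.

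The colonoid lines came from adult Vil-cre/ERT2/Apc wt/wt mice and the tumoroid lines from adult Vil-cre/ERT2/Apc flox/flox mice, taken after tamoxifen injection. Both genotypes therefore carried a tamoxifen-inducible Cre driven by the villin promoter, which is active in intestinal epithelium. Each line was grown from an individual mouse, so n = 3 counts mice, and F11 was the only line from a female. All cultures stood in Matrigel with Wnt3a-conditioned medium, R-spondin1, Noggin and EGF, and the drug or vehicle was given at replating for 6 days.

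Apc is the scaffold of the complex that marks β-catenin for destruction. When it is lost, β-catenin stays in the nucleus with TCF factors and keeps Wnt target genes on, which in the colon holds cells in a crypt-base, proliferative state and starts adenomas. Regorafenib is an oral inhibitor of several kinases, among them the VEGF, PDGF and FGF receptors, KIT, RET and the RAF kinases of the ERK pathway, and is given in metastatic colorectal cancer.

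The R8 libraries held between 4371813 (colonoid M1) and 19308017 (tumoroid M3) reads on genes. Colonoid M1 stood apart from the other colonoids under R8: on the first principal component of the 6 libraries, which took 45.8% of the variance, it lay at 0.05, against -36.5 for M41, -30.9 for M40 and 13.8 to 28.0 for the tumoroids. Xist was at 3921 CP20M in F11 and at most 2 in the others, and the Y-linked genes Ddx3y, Kdm5d and Eif2s3y were at 0 in F11 alone, as its label says. Apc itself read 1542 to 4944 CP20M in colonoids and 4748 to 6032 in tumoroids. These counts span the whole gene and not the deleted part, so they do not check the genotype. Of the 9 epithelial markers, 8 averaged at least 200 CP20M in R8 colonoids and 7 in R8 tumoroids. The exceptions were Cdx1 in both genotypes and Krt20 in the tumoroids. The 8 fibroblast markers together summed to at most 88 CP20M in any R8 library. The 6 immune markers together summed to 596 to 3245 CP20M in R8 colonoids and 854 to 1736 in R8 tumoroids, and 2 of them averaged at least 200. These were Cd68, a lysosomal protein used as a macrophage marker (211 to 2659 CP20M under R8, log2 difference -0.05), and Csf1r, the receptor for a macrophage growth factor (380 to 625, log2 difference -0.07). Ptprc, the marker of all leukocytes, Cd3e and Adgre1 were at most 5 in every R8 library. The part of these markers in the results was not tested.

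Under R8, 22 genes passed the test, 17 higher and 5 lower in tumoroids. This is 0.211% of the genes tested, 0.163% higher and 0.0479% lower. Of the 17 higher, 5 were below 200 CP20M in all colonoid libraries (Cyp1b1, Adgrl3, Bend4, Prom2 and 9530018H14Rik) and so entered the test only through the tumoroids, as 1 of the lower genes, Gm4875, did through the colonoids. Among colonoids, Stra6, Sh2d5, Casc4 and Gm11670 reached 200 CP20M in M1 only (206 to 275), so they too needed the tumoroids to pass the filter. Wisp1, a lower gene, reached it among tumoroids in F11 only (212) and needed the colonoids. The test was limma on log2(CP20M + 20) over the 12 Ve and R8 libraries, and a gene was called at a Benjamini-Hochberg adjusted p under 0.05 with at least a 2-fold difference (1 on the log2 scale). In vehicle the same rule called 152 of the same genes, or 1.46%, 80 higher and 72 lower. The number of genes at least 2-fold apart was the same, 482 under R8 and 482 in vehicle, while 1423 genes under R8 and 2480 in vehicle had an unadjusted p under 0.05. The spread between lines was not larger under the drug: the median SD of a gene's log2 level over the 3 lines was 0.20 in colonoids and 0.18 in tumoroids under R8, against 0.23 and 0.22 in vehicle.

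The counts depended on the fit and on single lines. With the 6 libraries of each condition fitted alone, 107 genes were called under R8 and 2 in vehicle, the reverse order. Without M41 no gene was called under R8 by limma (871 had an unadjusted p under 0.05), without M40 or without M14 there was 1, and without M1 there were 87. Without F11 there were 31 and without M3 there were 9.

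Of the 22 genes, 9 were also called in vehicle in the same direction, 6 higher and 3 lower, and 13 were called under R8 only. The 9 shared genes made up 40.9% of the R8 calls and 5.92% of the vehicle calls. All 22 were free of overlap between the 3 tumoroid and 3 colonoid libraries under R8, as were 24% of all genes tested (1833 higher and 668 lower in tumoroids). That split moved to 1236 higher and 1090 lower with TMM factors. No gene was called in both conditions with opposite directions.

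**Figure D1:**
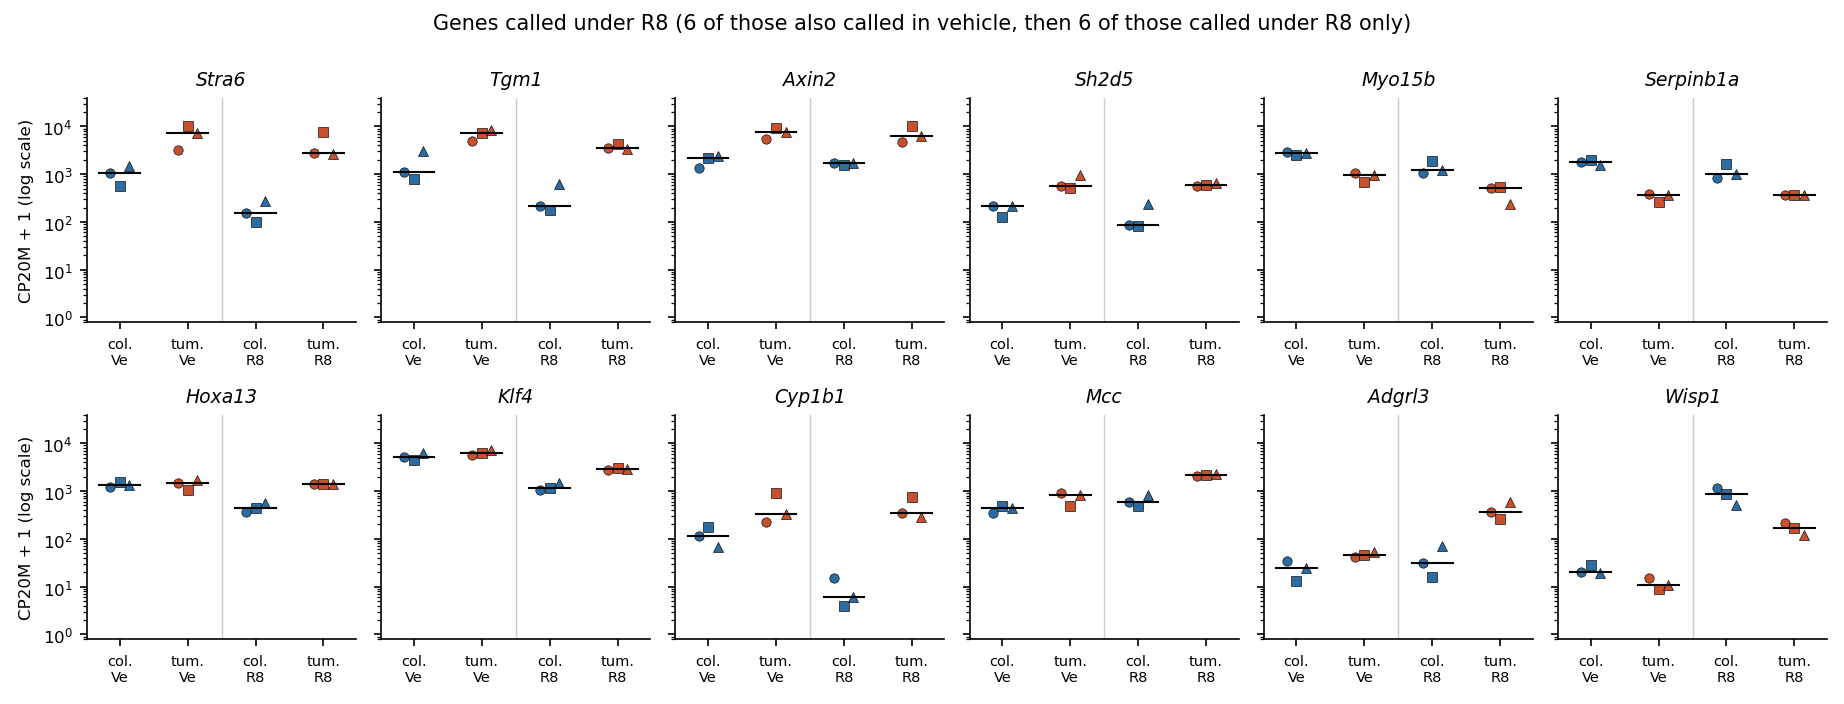
Level of 12 genes called under R8 in each Ve and R8 library, as CP20M + 1 on a log axis. Blue points are colonoids (col.) and red points tumoroids (tum.), marks are lines in the order M41, M40, M1 and F11, M3, M14 (circle, square, triangle), and bars are medians. The upper row holds genes also called in vehicle and the lower row genes called under R8 only; in each panel the R8 groups do not overlap.

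Among the differences that remained, Axin2 is the feedback inhibitor that β-catenin itself turns on. Under R8 it read 1671, 1560 and 1725 CP20M in colonoids M41, M40 and M1, and 4700, 10312 and 6391 in tumoroids F11, M3 and M14. Every tumoroid line was above every colonoid line, by 2.02 ± 0.29 on the log2 scale (SE, n = 3 lines per genotype, adjusted p = 0.0192 by limma). In vehicle the difference was 1.93 (adjusted p = 0.0137), and the change in the difference between conditions was 0.09 with a 95% confidence interval of -0.80 to 0.98. Axin2 lies at chr11:108920349-108950783 (GRCm38). The antisense gene Gm11670 lies within it and was called beside it, at 170 to 206 CP20M in colonoids and 541 to 1182 in tumoroids; since the strand setting of the counting is not stated, reads of these overlapping genes cannot be told apart.

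Stra6, the cell-surface receptor for retinol-binding protein, had the largest fitted rise among the calls. The order depends on the scale, since Cyp1b1 lay above it with a pseudocount of 5 CP20M and in pooled reads. It stood at 99 to 275 CP20M in R8 colonoids and at 2761, 7462 and 2647 in R8 tumoroids, a difference of 4.38 ± 0.52 on the log2 scale (adjusted p = 0.0103). In vehicle the difference was 2.68 (adjusted p = 0.0286). Both genotypes read lower under the drug than in vehicle, colonoids from 572 to 1454 CP20M and tumoroids from 3264 to 10338. Tgm1, a transglutaminase that cross-links the envelope of keratinizing cells, had the same shape: 174 to 618 CP20M in R8 colonoids and 3414 to 4304 in R8 tumoroids, 3.62 ± 0.50 on the log2 scale (adjusted p = 0.0192), against 2.25 in vehicle (adjusted p = 0.0380).

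The adaptor gene Sh2d5 (80 to 234 CP20M in R8 colonoids and 562 to 659 in R8 tumoroids, log2 difference 2.16) and Casc4 (156 to 275 and 578 to 663, log2 difference 1.51) also remained higher. Lower in tumoroids in both conditions were Serpinb1a, an inhibitor of serine proteases of the elastase type, and Myo15b, an unconventional myosin gene. Serpinb1a read 831, 1654 and 984 CP20M in R8 colonoids and 366, 367 and 366 in R8 tumoroids, where the 3 lines were within 1 CP20M of each other (log2 difference -1.54 ± 0.23, adjusted p = 0.0264; -2.31 in vehicle). Myo15b read 1048 to 1921 CP20M in colonoids and 238 to 544 in tumoroids (log2 difference -1.69 ± 0.30, adjusted p = 0.0498). It overlaps Recql5 on the opposite strand. With line as a random block 3 calls were lost, Myo15b, Sh3pxd2a and Gm16090.

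The lowest p of the comparison belonged to Gm4875, a processed pseudogene at chr6:117997207-117997992. It had 179, 120 and 64 reads in the R8 colonoids and 2, 1 and 3 in the R8 tumoroids, and was as unequal in vehicle (340 to 535 CP20M against 0 to 2). The pooled reads were 107-fold higher in colonoids, with an exact counting interval of 48.9 to 295 that leaves out the spread between lines. Reads of a pseudogene may be shared with its parent gene, so its level is uncertain. At an FDR of 0.01 it was the only gene called under R8.

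The differences that appeared under the drug fell into 2 shapes by which genotype moved more from vehicle: in 6 of the 13 genes the colonoid mean moved more, and in 7 the tumoroid mean did. All 13 had a vehicle difference of the same sign, and 2 of them reached 2-fold there. Fam69b had passed the adjusted p in vehicle as well (log2 difference 0.94, adjusted p = 0.0379) and missed only the 2-fold limit.

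Hoxa13, a homeobox factor that marks the hindgut and distal colon, belonged to the first shape. In vehicle the genotypes overlapped at 1230, 1562 and 1312 CP20M in colonoids and 1474, 1059 and 1703 in tumoroids. Under R8 the colonoids read 365, 445 and 563, while the tumoroids read 1407, 1431 and 1417. The difference was 1.61 ± 0.19 on the log2 scale under R8 (95% confidence interval 1.19 to 2.03, adjusted p = 0.0103) and 0.03 in vehicle. The change in the difference was 1.59 (0.99 to 2.18). It had the lowest unadjusted p of all genes for that change, 8.75e-05, but an adjusted p of 0.776 by limma.

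Klf4, a zinc-finger factor of differentiating colon epithelium, followed Hoxa13. Colonoids read 4578 to 6240 CP20M in vehicle and 1038, 1137 and 1446 under R8, and tumoroids 5595 to 7182 and then 2822, 3059 and 2894. Both genotypes were thus lower with the drug, and the R8 difference was 1.28 ± 0.16 on the log2 scale (adjusted p = 0.0103), against 0.26 in vehicle. Prom2, a membrane glycoprotein of cell protrusions, read 105 to 137 CP20M in vehicle colonoids and 89 to 227 in vehicle tumoroids, with overlap. Under R8 the colonoids were lower, at 29 to 87, and the tumoroids stood at 250 to 342 (log2 difference 2.13 ± 0.38, adjusted p = 0.0498).

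Cyp1b1, a cytochrome P450 enzyme that oxidizes steroids and aromatic compounds and is induced through the aryl hydrocarbon receptor, was nearly absent from R8 colonoids: 7, 1 and 1 reads (14, 3 and 5 CP20M) in M41, M40 and M1. The R8 tumoroids held 129, 709 and 237 reads (342, 735 and 292 CP20M). The pooled ratio was 67.3, with an exact counting interval of 35.3 to 148 that leaves out the spread between lines. In vehicle the levels were 65 to 180 CP20M in colonoids and 228 to 891 in tumoroids, a log2 difference of 1.70 that missed the threshold (adjusted p = 0.0780). The fitted R8 difference was 4.03 ± 0.51 (adjusted p = 0.0103), but ranged from 2.29 to 5.88 over the alternatives, since it depends on the pseudocount. The RefSeq promoter window of Cyp1b1 is shown because the aryl hydrocarbon receptor reads the core GCGTG. The capitals mark its match, found on the reverse strand. Of 32851 RefSeq windows of this length, 32.4% hold GCGTG on either strand, so the match is not particular to Cyp1b1. The window is chr17:79715012-79715311 (GRCm38.p6, minus strand), written 5′ to 3′ along the gene.
Cyp1b1: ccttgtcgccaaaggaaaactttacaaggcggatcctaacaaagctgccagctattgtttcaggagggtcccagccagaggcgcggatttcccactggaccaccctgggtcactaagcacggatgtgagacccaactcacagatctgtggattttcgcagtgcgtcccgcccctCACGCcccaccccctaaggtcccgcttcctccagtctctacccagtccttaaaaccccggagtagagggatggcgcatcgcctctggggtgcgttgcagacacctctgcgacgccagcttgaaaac

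In the second shape the tumoroids moved. Mcc, named for its mutation in colorectal cancers, read 343 to 493 CP20M in vehicle colonoids and 484 to 842 under R8, while tumoroids went from 483 to 927 in vehicle to 2109, 2136 and 2292 under R8 (log2 difference 1.78 ± 0.25, adjusted p = 0.0192). Adgrl3, an adhesion receptor of the latrophilin family, was at 12 to 53 CP20M in all 6 vehicle libraries. It stayed at 30, 15 and 69 in R8 colonoids and stood at 366, 263 and 590 in R8 tumoroids (log2 difference 2.91 ± 0.44, adjusted p = 0.0276). Both genes separated under R8 without overlap. Adgrl3 had no overlap in vehicle either, at 12 to 34 CP20M in colonoids and 40 to 53 in tumoroids. Bend4, a BEN-domain gene, read 28 to 115 CP20M in R8 colonoids and 310 to 734 in R8 tumoroids (log2 difference 2.78 ± 0.45, adjusted p = 0.0319). It was free of overlap in vehicle too, at 16 to 25 CP20M in colonoids and 72 to 158 in tumoroids. That vehicle difference missed the threshold (1.69 on the log2 scale, adjusted p = 0.0604 by limma). Sh3pxd2a, the scaffold of invadopodia, read 760 to 1104 and 2608 to 3272 (log2 difference 1.58), and Fam69b read 230 to 340 and 589 to 731 (log2 difference 1.16).

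Wisp1, a secreted matricellular protein first found as a gene induced by Wnt1, was the larger fall of the 2 genes called lower under R8 only. In vehicle the colonoids held 18 to 27 CP20M and the tumoroids 8 to 14, without overlap and far below the filter. Under R8 the colonoids M41, M40 and M1 read 1160, 860 and 508, and the tumoroids F11, M3 and M14 read 212, 164 and 121. All 6 lines were thus higher with the drug, and the tumoroids less so, by -2.17 ± 0.35 on the log2 scale (adjusted p = 0.0311). The colonoid mean moved more, as in the first shape. The other of these genes was Gm16090, an antisense gene that overlaps the desmoglein gene Dsg2.

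**Figure D2:**
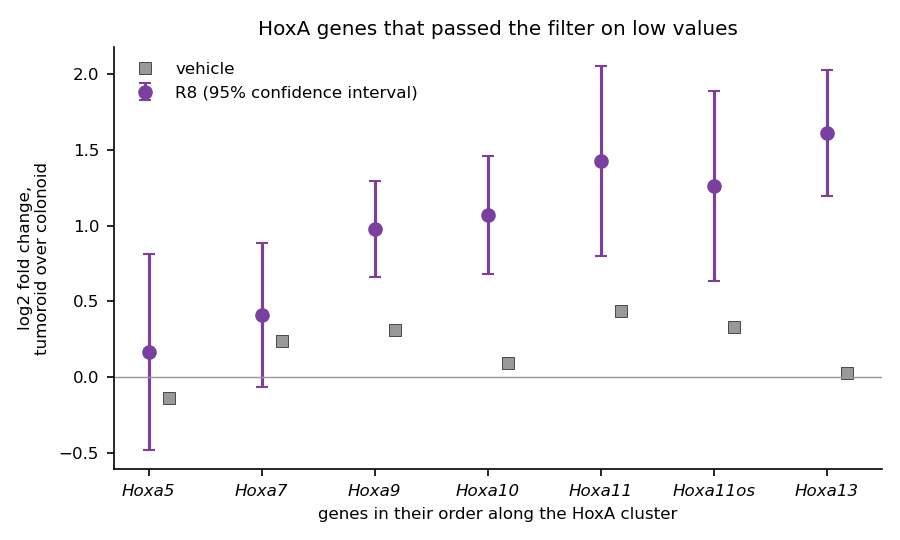
Difference between tumoroids and colonoids for the 7 HoxA genes that passed the filter, in their order along the cluster, as log2 fold change. Circles with bars are R8 values with 95% confidence intervals (limma, n = 3 lines per genotype) and squares are vehicle values; from Hoxa9 to Hoxa13 the R8 values lie between 0.98 and 1.61 and the vehicle values between 0.03 and 0.43.

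The R8 calls Hoxa13, Hoxa10 and 9530018H14Rik lay together at the 5′ end of the HoxA cluster on chromosome 6. There 9530018H14Rik (52256218-52257460) lies beside the 3′ end of Hoxa13 (52257694-52260880) on the same strand. Whether its reads come from a separate transcript was not tested. The neighbouring Hox genes were therefore looked at after these values were seen, and they are given as a description. Hoxa10 read 1261, 1030 and 1140 CP20M in R8 colonoids and 2379, 2089 and 2828 in R8 tumoroids (log2 difference 1.07 ± 0.18, adjusted p = 0.0371; 0.09 in vehicle). Hoxa9 read 714 to 1060 and 1607 to 1883 (log2 difference 0.98, adjusted p = 0.0255 by limma) and missed only the 2-fold limit. It was free of overlap in vehicle too, at 1128 to 1271 CP20M in colonoids and 1422 to 1601 in tumoroids (log2 difference 0.31). Hoxa10, Hoxa11 and Hoxa13 overlapped in vehicle. Under R8 Hoxa11 read 265 to 359 and 722 to 1107 (log2 difference 1.43). For all of these and for Hoxa11os, an antisense gene that overlaps Hoxa11, the R8 tumoroids lay above the R8 colonoids without overlap. Toward the other end of the cluster, Hoxa5 (150 to 237 and 176 to 257 CP20M) and Hoxa7 (220 to 363 and 289 to 459 CP20M) overlapped. Outside the cluster, Hoxb13 (358 to 1126 and 685 to 1029 CP20M) and Hoxb9 (338 to 517 and 420 to 570) overlapped under R8. Hoxb4 did not, at 24, 164 and 142 CP20M in colonoids and 183, 211 and 266 in tumoroids, but it did not pass the test (log2 difference 1.12, adjusted p = 0.404; 1.02 in vehicle). Hoxd13 went the other way in vehicle, 1339 to 2990 CP20M in colonoids and 2 to 244 in tumoroids (log2 difference -5.11 ± 0.87, adjusted p = 0.0230). Under R8 it read 547, 1200 and 2256 in colonoids and 64, 341 and 51 in tumoroids, still without overlap, but did not pass the test (log2 difference -3.17, adjusted p = 0.159).

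**Figure D3:**
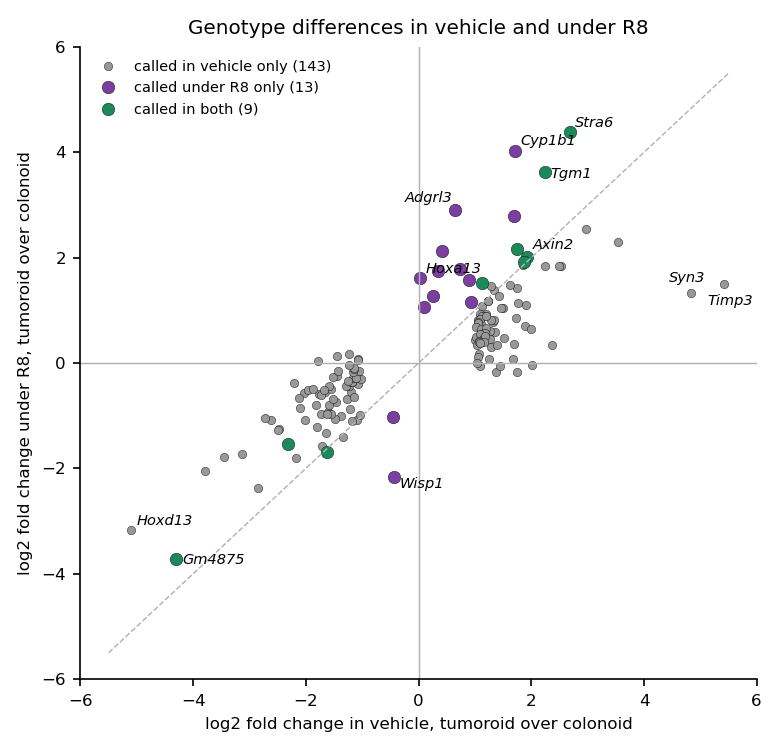
Log2 fold change of tumoroids over colonoids in vehicle (horizontal) and under R8 (vertical) for the genes called in either condition. Grey points are the 143 genes called in vehicle only, purple points the 13 called under R8 only and green points the 9 called in both; the dashed line marks equal differences, and most grey points lie nearer to 0 on the vertical axis.

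Of the 152 vehicle calls, 143 were not called under R8, 74 higher and 69 lower in tumoroids. Their median absolute difference was 1.34 on the log2 scale in vehicle, and the median R8 difference taken in the vehicle direction was 0.64. Most did not vanish entirely: 133 kept the sign and 10 had the opposite one, 39 still differed at least 2-fold, and 76 had an unadjusted p under 0.05 in the same direction. Since these genes were chosen for their vehicle values, a smaller value in other libraries was built into the choice. In 94 of the 143 the colonoid mean moved more between vehicle and R8, and in 49 the tumoroid mean did.

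Timp3, a matrix-bound inhibitor of metalloproteinases, had the largest vehicle difference among the genes that passed the R8 filter. It read 122, 73 and 757 CP20M in vehicle colonoids and 2430, 33623 and 9702 in vehicle tumoroids (log2 difference 5.42 ± 1.03, adjusted p = 0.0262). Under R8 the colonoids M41 and M1 stood at 3210 and 2539 and M40 at 383, and the tumoroids at 4552, 5493 and 3002, so that the groups overlapped (adjusted p = 0.528). Syn3, whose gene holds Timp3 on the opposite strand, ran beside it (log2 difference 4.84 in vehicle and 1.33 under R8), and reads of the pair cannot be told apart. Hspg2, the basement membrane proteoglycan perlecan, read 40 to 150 CP20M in vehicle colonoids and 831 to 1453 in vehicle tumoroids. Under R8 it read 187 to 474 and 562 to 3701, which did not pass (log2 difference 2.30, adjusted p = 0.149).

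Lower in vehicle tumoroids, and not called under R8, were the galactosyltransferase gene B4galt4 and Abcb1a, a drug efflux pump. B4galt4 read 636 to 1509 CP20M in vehicle colonoids and 16 to 111 in vehicle tumoroids (log2 difference -3.79), then 211 to 316 and 30 to 75 under R8 (log2 difference -2.05, adjusted p = 0.0945). Abcb1a read 1163 to 2917 and 43 to 305 in vehicle (log2 difference -3.45), then 574 to 1126 and 173 to 348 under R8 (log2 difference -1.79, adjusted p = 0.221). In both genes the colonoids read lower with the drug and the R8 groups still did not overlap.

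**Figure D4:**
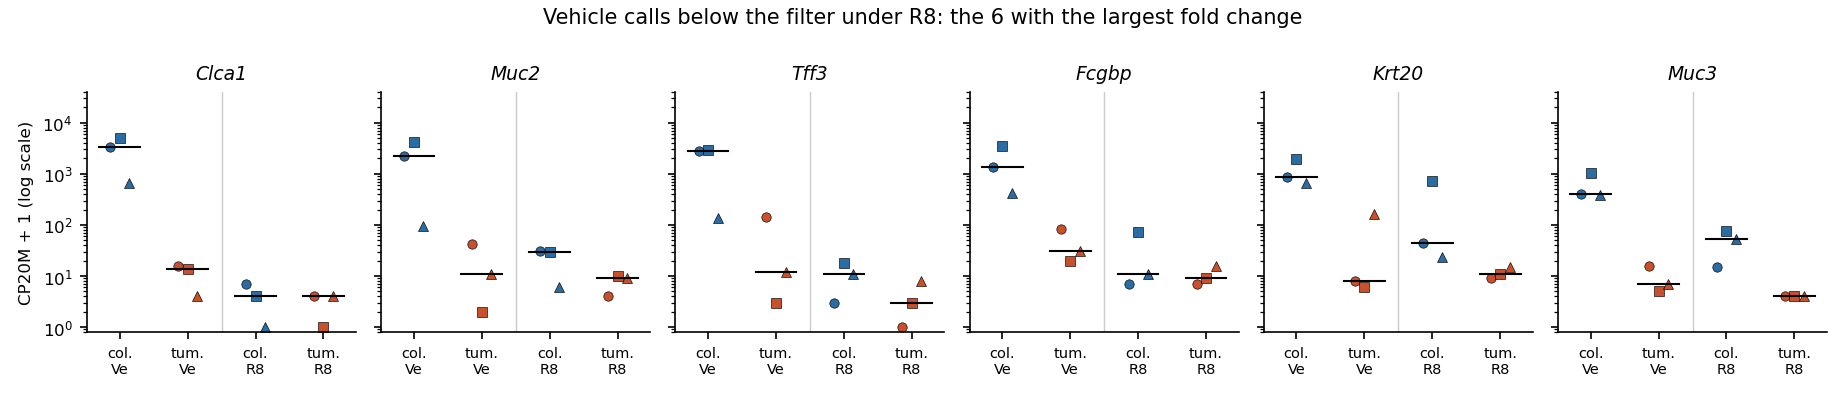
Level in each Ve and R8 library, as CP20M + 1 on a log axis, of the 6 genes with the largest vehicle difference among those below the filter under R8. Blue points are colonoids and red points tumoroids, with lines marked as circle, square and triangle (M41, M40, M1 and F11, M3, M14) and medians as bars. The colonoids that lie above the tumoroids in vehicle fall toward the tumoroid level under R8. Krt20 and Muc3 stay above the R8 tumoroids in every colonoid line, Muc3 at 14 to 76 CP20M against 3.

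A further 45 vehicle calls, 40 lower and 5 higher in tumoroids, were absent from the R8 comparison because they missed its filter. Not all of them fell with the drug. Adcy3 read 201, 455 and 198 CP20M in vehicle tumoroids F11, M3 and M14 and 199, 459 and 145 under R8. The 45 came from the same model on the 11163 genes with at least 200 CP20M in 2 of the 12 libraries, of which 723 missed the R8 filter. Each of these 723 needed vehicle libraries to enter, and the lower calls were high in the vehicle colonoids. The split of 40 to 5 and the list counts thus follow in part from the filter. The 40 lower ones held 6 of the 17 goblet and secretory genes listed and 2 of the 25 colonocyte genes, and the 5 with the largest differences were Clca1, Muc2, Tff3, Fcgbp and Krt20. Clca1, a protein secreted by goblet cells with mucus, read 3366, 5060 and 651 CP20M in vehicle colonoids and at most 15 in vehicle tumoroids, and under R8 it was at 6, 3 and 0 in colonoids. Muc2, the gel-forming mucin of the colon, read 2267, 4154 and 93 in vehicle colonoids and 30, 29 and 5 under R8. Tff3, the trefoil peptide of goblet cells, and Fcgbp, a mucus protein, were at 138 to 2866 and 429 to 3536 in vehicle colonoids and at most 17 and 72 under R8. Krt20, a keratin of differentiated surface cells, kept 727 CP20M in M40 under R8 and was at 44 and 23 in M41 and M1. Thus for Clca1, Muc2, Tff3 and Fcgbp the R8 colonoids read no more than the highest vehicle tumoroid of the same gene, while Krt20 stayed above the R8 tumoroids (8 to 14) in every colonoid line. Values this low carry little resolution in M1, where 1 read is 4.57 CP20M.

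The change in the genotype difference was tested directly as the interaction of genotype and R8. No gene passed in limma (628 of 10440 had an unadjusted p under 0.05), none in edgeR and 2 in DESeq2, Hoxa13 and Sorbs2, on whole reads. So the division into remained, appeared and vanished rests on calls within each condition and not on a tested change. Among the 13 genes called under R8 only, 10 had an unadjusted interaction p under 0.05, and among the 143 called in vehicle only, 64 did. Both groups were chosen by a call in only 1 condition of the same fit. A raised share of low interaction p-values was thus built into the choice. After Hoxa13 the lowest p belonged to Sorbs2, an adaptor of the actin cytoskeleton. It read 1205 to 1702 CP20M in vehicle colonoids and 4453 to 5771 in vehicle tumoroids. Under R8 the colonoids stood at 10753, 6385 and 4232 and the tumoroids at 5370, 6546 and 5742, with overlap (change -1.92, 95% confidence interval -2.77 to -1.07, unadjusted p = 0.000372, adjusted p = 0.776 by limma). Others among the 10 lowest were Slc1a4, a neutral amino acid transporter (change -1.15), Nptx1, a pentraxin (2.40), the lipid transfer protein gene Gltp (0.95) and the Src-family-like kinase gene Frk (0.84), and none of them passed. Slc1a4 and Gltp were free of overlap in both conditions and in opposite directions: Slc1a4 was higher in vehicle tumoroids (1276 to 1876 CP20M against 713 to 1017) and lower under R8 (840 to 1021 against 1025 to 1346), and Gltp was lower in vehicle tumoroids and higher under R8.

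**Figure D5:**
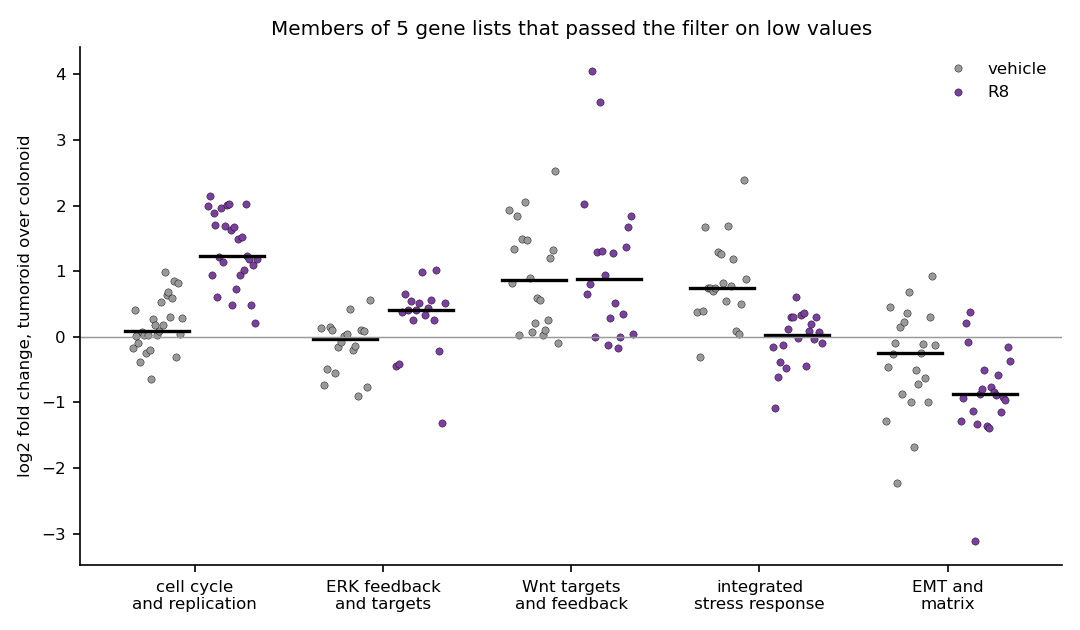
Log2 fold change of tumoroids over colonoids for the members of 5 gene lists that passed the filter, in vehicle (grey) and under R8 (purple), with medians as bars. The medians move from 0.09 to 1.23 for cell cycle and replication, from -0.03 to 0.41 for ERK feedback, from 0.75 to 0.03 for the integrated stress response and from -0.25 to -0.88 for EMT and matrix, and are 0.86 and 0.88 for Wnt targets.

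Gene lists gave a fuller picture of levels than single calls, with 2 R8 calls among all the lists, Axin2 and Cyp1b1. The median difference over all 10440 genes was 0.08 under R8 and 0.06 in vehicle. Of these genes, 6369 had a higher mean in tumoroids under R8 and 5976 in vehicle, and 4062 and 4458 a lower one. Under R8, 1833 lay higher and 668 lower without overlap, and 1423 had an unadjusted p under 0.05 by limma. Cell cycle and replication genes stood highest. All 36 listed genes had a higher mean in tumoroids under R8, as did 34 in vehicle. Of the 27 that passed the filter, 11 did so only through the tumoroid libraries, so a positive median for them follows in part from the filter. The median was 1.23 under R8 and 0.09 in vehicle, none was called, and 7 under R8 and 1 in vehicle had an unadjusted p under 0.05. Mki67, the proliferation marker, read 287, 543 and 485 CP20M in R8 colonoids and 1473, 2533 and 1410 in R8 tumoroids without overlap (log2 difference 1.99, adjusted p = 0.453). The mean log2 level of the list was 7.34, 7.64 and 7.96 in R8 colonoids M41, M40 and M1 and 9.07, 9.08 and 8.77 in R8 tumoroids F11, M3 and M14. In vehicle it was 7.84, 9.59 and 8.17 in colonoids M41, M40 and M1 and 10.73, 7.54 and 7.78 in tumoroids F11, M3 and M14. Tumoroids M3 and M14 thus lay below every vehicle colonoid, so the higher vehicle means are not a trait of all tumoroid lines. From vehicle to R8 the list level rose in M3 and M14 and fell in F11. The groups thus overlapped in vehicle and not under R8, while the fit gives both conditions a shared spread.

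Among the replication genes, the helicase subunit genes Mcm3, Mcm5 and Mcm7 read 342 to 549, 103 to 252 and 705 to 851 CP20M in R8 colonoids and 1128 to 1505, 602 to 864 and 1656 to 1968 in R8 tumoroids. No R8 groups of these 3 genes overlapped, and none passed the test (log2 differences of 1.52, 2.03 and 1.19 with adjusted p = 0.304, 0.323 and 0.298). Promoter windows of Mcm3 and Mcm5 are shown as those of list members that hold the E2F motif TTTNNCGC. Capitals mark its matches on either strand, which overlap each other in Mcm5. Of the 28 list members with a RefSeq window, 9 held a match. By window it was 9 of 30, against 5.2% of all 32851 windows. The windows are chr1:20820263-20820562 (minus strand) for Mcm3 and chr8:75109259-75109558 (plus strand) for Mcm5 (GRCm38.p6), written 5′ to 3′ along the gene.
Mcm3: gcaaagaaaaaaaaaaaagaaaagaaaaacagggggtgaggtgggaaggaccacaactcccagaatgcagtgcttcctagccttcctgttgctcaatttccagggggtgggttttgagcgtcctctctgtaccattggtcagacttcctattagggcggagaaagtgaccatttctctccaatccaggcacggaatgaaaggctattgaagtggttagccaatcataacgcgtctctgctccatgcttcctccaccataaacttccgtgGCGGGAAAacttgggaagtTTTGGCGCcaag
Mcm5: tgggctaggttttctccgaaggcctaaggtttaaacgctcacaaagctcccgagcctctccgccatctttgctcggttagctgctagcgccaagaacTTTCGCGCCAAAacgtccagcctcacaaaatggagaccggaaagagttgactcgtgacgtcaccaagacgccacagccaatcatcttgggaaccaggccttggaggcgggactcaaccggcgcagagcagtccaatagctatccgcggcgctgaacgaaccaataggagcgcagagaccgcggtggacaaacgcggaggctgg

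ERK feedback genes, which rise with RAF, MEK and ERK activity and restrain it, had a median of 0.41 under R8 and -0.03 in vehicle, with no call in either condition. Of the 19 listed, 14 had a higher mean in tumoroids under R8 and 9 in vehicle, and 18 passed the filter, 2 of them only through tumoroids. Over all 10440 genes tested, 6369 had a higher mean in tumoroids under R8 and 5976 in vehicle. The immediate early gene Ier3 read 3129, 3100 and 4726 CP20M in R8 colonoids and 6581, 9216 and 6381 in R8 tumoroids (log2 difference 1.02, adjusted p = 0.122; 0.10 in vehicle). Etv4, an ETS factor downstream of ERK, read 365 to 744 and 996 to 1169 (log2 difference 0.99, adjusted p = 0.234), and Spred2, an inhibitor of RAS to RAF signalling, read 1436 to 1671 and 1859 to 2380 (log2 difference 0.41, adjusted p = 0.219). Epha4 went the other way, 1172 to 3756 and 768 to 1158 CP20M. Among the 8 regorafenib target kinases that passed the filter the median was -0.08 and none was called.

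Wnt targets had nearly the same median in both conditions, while single members moved both ways. Of the 34 listed, 27 had a higher mean in R8 tumoroids and 24 in vehicle tumoroids, against 6369 and 5976 of all 10440 genes tested. The median over the 20 that passed was 0.88 under R8 and 0.86 in vehicle. Axin2 was the only call under R8, with 11 members at an unadjusted p under 0.05, and 4 members passed the filter only through tumoroids. Myc read 1588, 2230 and 2970 CP20M in R8 colonoids and 4967, 6733 and 4491 in R8 tumoroids (log2 difference 1.27, adjusted p = 0.0623). Tnfrsf19, the receptor Troy of crypt-base cells, read 6 to 51 and 220 to 1015 (log2 difference 3.58, adjusted p = 0.0706). Nuak1, a kinase of the AMPK family, and Znrf3, a ubiquitin ligase that removes Wnt receptors, were called in vehicle (log2 differences of 2.52 and 1.34) and not under R8 (1.85 and 0.81), where the groups still did not overlap. The Axin2 promoter window held no match to the TCF letters CTTTGA or CTTTGT, which 31.2% of all windows hold.

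The integrated stress response, in which ATF4 turns on amino acid synthesis and transport, had a list median above that of all genes in vehicle and near it under R8. Of 21 listed genes 20 had a higher mean in tumoroids in vehicle and 9 under R8, and the median fell from 0.75 to 0.03 over the 20 that passed. Slc7a5, a large neutral amino acid transporter, Phgdh and Shmt2, enzymes of serine and glycine synthesis, were called in vehicle and not under R8. Slc7a5 read 1052 to 2958 CP20M in vehicle colonoids and 5643 to 6783 in vehicle tumoroids, and 1094 to 1922 and 1330 to 2038 under R8 (log2 difference 0.36, adjusted p = 0.663). The other two still lay higher in R8 tumoroids without overlap, Shmt2 at 1414 to 1872 CP20M in colonoids and 2053 to 2718 in tumoroids (log2 difference 0.60, adjusted p = 0.262) and Phgdh at 3427 to 3986 and 4221 to 5089 (log2 difference 0.31, adjusted p = 0.589). The mean log2 level of the list was 10.0 to 10.4 in R8 colonoids and 10.1 to 10.3 in R8 tumoroids, against 9.53 to 10.8 and 10.7 to 11.5 in vehicle.

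EMT and matrix genes stood lower in tumoroids under R8. Of 39 listed, 28 had a lower mean under R8 and 29 in vehicle, and the median over the 22 that passed was -0.88 under R8 and -0.25 in vehicle. None was called, 13 had an unadjusted p under 0.05 under R8, and 9 lay lower without overlap. Over all 10440 genes tested these counts were 1423 and 668. Tenascin C (Tnc), a matrix protein of wounds and tumour stroma, was at 4 to 17 CP20M in every vehicle library. Under R8 it read 2977, 789 and 197 in colonoids and 38, 76 and 124 in tumoroids (log2 difference -3.12 ± 0.75, adjusted p = 0.113). The integrin subunit Itgav read 6767 to 13642 and 3349 to 5693 CP20M (log2 difference -1.14, adjusted p = 0.109), and E-cadherin (Cdh1), which holds epithelial cells together, read 19713 to 34012 and 11998 to 15884 (log2 difference -0.94, adjusted p = 0.118). The list thus holds an epithelial gene, Cdh1, beside matrix genes such as Tnc, and its median gives no direction of EMT. For Tnc, Itgav and Cdh1 the M1 library was the lowest colonoid. The mean log2 level of the list was 9.43 and 9.41 in M41 and M40 and 8.82 in M1, which lay inside the tumoroid range of 8.38 to 8.86.

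In the other lists the only R8 call was Cyp1b1, among the drug transport and metabolism genes. Of the 14 of these that were tested, 6 passed the filter only through tumoroids and 4 only through colonoids. Their median of 0.32 and the 5 with an unadjusted p under 0.05 by limma thus follow in part from the filter. Over all 10440 genes tested, 1423 had such a p under R8 and 668 lay lower in tumoroids without overlap. Of 27 autophagy and lysosome genes 6 had such a p and 5 lay lower in tumoroids without overlap, among them the lysosomal protease gene Ctsl (11390 to 14548 CP20M in colonoids and 7677 to 9557 in tumoroids, log2 difference -0.60, adjusted p = 0.194) and the lysosomal membrane protein gene Lamp1 (14210 to 17696 and 10718 to 12188, log2 difference -0.43, adjusted p = 0.212). Of 22 fetal-like and YAP target genes 6 had an unadjusted p under 0.05. Their median was -0.11, and Clu read 42222 to 60598 CP20M in colonoids and 19405 to 28516 in tumoroids (log2 difference -1.18, adjusted p = 0.146). Gja1, a connexin gene called in vehicle, read 1040 to 1227 and 2276 to 2568 (log2 difference 1.04, adjusted p = 0.0970). The medians were 0.07 over 8 stem cell genes, -0.36 over 8 colonocyte genes, 0.32 over 3 goblet genes of 17 listed, 0.17 over 13 p53 targets, -0.06 over 12 interferon and antigen presentation genes, 0.14 over 19 cholesterol genes and -0.08 over 27 autophagy and lysosome genes. They were 0.08 over 15 hypoxia and glycolysis genes and -0.30 over 12 secreted proteins and cytokines. These medians cover only members that passed the filter, and in some lists all members together went the other way. Under R8 the tumoroid mean was higher for 4 and lower for 11 of the 17 goblet genes. It was higher for 22 and lower for 6 interferon and antigen presentation genes, and higher for 15 and lower for 9 secreted proteins and cytokines. None of the 20 enteroendocrine and tuft genes passed the filter. Il18, an epithelial cytokine, and Car9, a hypoxia-induced carbonic anhydrase, were called in vehicle (log2 differences of -1.79 and 1.67) and overlapped under R8 (0.05 and 0.08). Of the 7 genes that the study picked for genotype on its vehicle libraries, which is not independent evidence of their direction, 5 passed the filter. The median was -0.44 under R8 and -1.12 in vehicle, with 4 called in vehicle and none under R8. The other two, Ackr3 and Adcy3, were vehicle calls below the filter, higher in tumoroids. They stayed higher under R8 without overlap, Adcy3 at 33 to 60 CP20M in colonoids and 145 to 459 in tumoroids and Ackr3 at 0 to 3 and 27 to 317, so the median leaves them out.

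The 22 R8 calls were followed in the other cultures of the same lines. In 4 µM regorafenib (R4), 19 of the 22 had all tumoroid lines on the R8 side of all colonoid lines, against 17.9% of all genes tested with no overlap in either direction. In 1 µM 5-FU, an antimetabolite, it was 16 of 22 against 15.6%. The titles of the tumoroid 5-FU libraries call them colonoids, while their descriptions mark them KO (knockout). Titles and descriptions both name the tumoroid lines. These libraries were grouped as tumoroids, after the descriptions. The lines, and so the mice, were the same as under R8. The R4 library of M41 held 512591 reads, where 1 read is 39.0 CP20M, so its low values are coarse. Hoxa13 read 274, 590 and 610 CP20M in R4 colonoids and 1677, 1031 and 1393 in R4 tumoroids, near the R8 levels. With 5-FU it read 1126, 1086 and 992 in colonoids and 1966, 1691 and 2189 in tumoroids, a narrower gap. Axin2 was separated in every culture, at 430 to 1851 and 4599 to 9146 CP20M in R4 and 1475 to 2521 and 4215 to 10756 with 5-FU. Wisp1 was not: it overlapped in R4 (40 to 170 and 11 to 175 CP20M) and with 5-FU (77 to 184 and 58 to 174). The other 2 calls that overlapped in R4 were Mcc and Gm16090. Klf4 overlapped with 5-FU, at 2517 to 3537 and 2771 to 4164 CP20M.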

How the data were processed

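RNA libraries of 24 organoid cultures were used, and the fibroblast cultures were not used here. The authors trimmed paired-end reads with Trimmomatic 0.36, aligned them with STAR 2.5.3a to GRCm38 and counted them per gene with HTSeq 0.9.1, as their processing notes list. They deposited a signal per gene, the count scaled to nearly the same total in every library and rounded up (CP20M). A legend of the paper describes the unit as divided by transcript length, but genes of all lengths shared 1 step per library, so the values were taken as not divided. The labels name an Ovation SoLo kit and the paper's methods a directional NEBNext kit, and the strand setting of the counting is not given in the sources used here. Whole reads were recovered from the step between values (99.79% to 100% of the values whole). The vehicle total of M3, where the step is below 1, is approximate. Counting intervals cover counting error only.

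Samples were grouped by their labels, and by the description where title and description disagreed on the genotype. Genes with at least 200 CP20M (10 CPM) in 2 or more of the 6 R8 libraries were tested on log2(CP20M + 20), so fold changes of low genes are understated. limma 3.58.1 in R 4.3.3 (eBayes with trend) had 1 coefficient for each of 4 groups over 12 libraries and no block. Calls needed a Benjamini-Hochberg adjusted p under 0.05 and a log2 fold change of 1, and the interaction an adjusted p under 0.05. edgeR and DESeq2 on whole reads were alternatives, and the tests were tried on simulated data. The named genes were the 10 largest rises and falls under R8 without overlap, up to 6 genes of each class, the 10 lowest interaction p-values, the leading members of each list and every called member. The comparison and the lists were chosen with earlier results of these data known. Libraries of a line in vehicle and R8 deviated together (correlation across genes of 0.18 to 0.60 in each of the 6 lines), and they come from the same mouse. The 3 lines of a genotype differed beyond counting noise (chi-square per gene of at least 15.2), so none is a copy. Gene positions are from GENCODE M21 on GRCm38 and promoter windows from RefSeq, which holds a window for 11 of the 22 R8 calls.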

Additional observations from a re-analysis of the deposited data

Results flagged for a closer look

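In 6 of the 113 named genes every line of 1 genotype moved one way from vehicle to R8 and every line of the other moved the opposite way, as did 117 of all 10440 genes tested (1.12%). Some named genes were chosen for a low interaction p or a call in 1 condition only. A higher share among the named genes was thus built into the choice. This pattern of directions was not tested as such, and in limma's interaction test none of the 6 passed (adjusted p of 0.776, and 0.812 for Hoxd13). The change in the tumoroid minus colonoid difference from vehicle to R8 was 0.98 on the log2 scale for Hoxa10, 1.94 for Hoxd13, 0.84 for Frk and 1.71 for Prom2, which fell in colonoids and rose in tumoroids. It was -1.15 for Slc1a4 and -1.14 for Qsox2, which rose in colonoids and fell in tumoroids. Groups of 3 lines are too small for a check of single outlying samples.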

How the results depend on the processing

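The 22 R8 calls, 152 vehicle calls, 9 shared calls, 45 vehicle calls below the R8 filter and 0 interaction calls were recomputed. Fitted on the 6 libraries of a condition alone, they were 107, 2, 2 and 5, with no interaction. With 18 libraries they were 11, 79 and 4, and with all 24 the vehicle count was 101. A pseudocount of 5 CP20M gave 13 R8 calls. Without a filter there were 37 R8 calls and 1 interaction call, Gm26880, named after its value was seen. DESeq2 gave 176, 342, 81, 105 and 2 (Hoxa13 and Sorbs2). At an FDR of 0.01 they were 1, 11, 1, 5 and 0. Leaving out a line gave 0 to 87 R8 calls, 9 to 252 vehicle calls, 0 to 32 shared calls, 4 to 72 below the filter and 0 to 0 interaction calls. The lone pair left in a genotype is assumed to vary like the other groups. TMM factors moved the vehicle split from 80 higher of 152 to 59 of 140, and edgeR gave 11 higher of 20 R8 calls. They moved the medians of all genes under R8 from 0.08 to -0.01.

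With line as a random replicate block there were 20, 148, 8, 43 and 0 calls, and Myo15b, Sh3pxd2a and Gm16090 were lost; with line as a fixed replicate block no interaction was called (761 with an unadjusted p under 0.05). No line has both genotypes, so the genotype difference itself has no paired form. The filter alternatives give no count below the filter. Of 646 recomputed values of single genes, 407 kept direction and side of the threshold and 239 kept direction and missed it; none reversed. Of the 22 genes, 18 were still called without M1, 12 without F11, 6 without M3, 1 without M14 and 0 without M40 or M41. With 3 lines per genotype and 4371813 reads in M1, differences of lowly counted genes are the least certain.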
